A study of Homo sapiens with 2 samples.

Results

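The tropomyosin genes TPM1, TPM2, TPM3 and TPM4 were taken from the deposited transcript lists by gene name, which gave 4 of 26370 gene names and 26 of 56891 transcripts. The sequenced RNA came from CHME3, an established human cell line whose labelled cell type is microglia, kept between passages 4 and 6. The untreated group was 1 library of cells given no drug. The treated group was 1 library of cells exposed to muscarinic receptor antagonists, which block acetylcholine receptors of the muscarinic type. A dose of 5 µg/ml, stated to be the EC50, is given in a treatment text that both samples carry. The compound and the time of exposure are not stated in the labels. Both groups are the same line, so each describes cultured cells of a single origin, and with 1 library per group no difference below has a replicate check or a test.

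Tropomyosins are rod-shaped coiled-coil proteins that lie end to end along actin filaments and govern which other proteins, such as myosin, cofilin and troponin, can act there. Each gene makes several proteins by choosing among alternative first, internal and last exons. Transcripts that begin at the upstream start encode long forms, typical of muscle and of stress fibres, and transcripts that begin at an internal start encode short forms. Loss of long forms and persistence of short ones is a familiar feature of many transformed cells. In this text exons are numbered along each gene in the order of transcription, with letters for alternatives at the same position, from the exon lines of the files.

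The libraries held an estimated 6702761 fragments (untreated) and 7295689 (treated). Markers of the labelled cell type were scarce. Of 13 microglia genes 7 were listed at 0 in both libraries, among them AIF1, TMEM119, CX3CR1, ITGAM and PTPRC. CD68, a lysosomal gene that other cells also express, was at 15.7 and 12.6 FPKM. Of 8 epithelial markers 3 averaged 1 FPKM or more, led by the keratin KRT18 at 241 and 262 FPKM, while ESRP1, an epithelial splicing factor, was at 0.293 and 0.291 FPKM. Of 7 red cell and platelet markers 4 were at 0 in both, and the list summed to 3.72 and 3.71 FPKM, led by ITGA2B at 2.98 and 3.04 and GP1BA at 0.565 and 0.675. KRT8 was at 13.5 and 14.2 FPKM and TNNI3 at 1.13 and 0.830.

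The exons that distinguish the transcripts described below are printed here because the results turn on which of them is used. In TPM1, TPM2 and TPM3 the sixth exon comes in alternative forms, 6a and 6b, of 76 bases each. The sequences were read from GENCODE release 29 transcripts on GRCh38, whose introns match those of 24 of the 26 transcripts in the files on hg38, the same assembly. All of the exons shown are coding. They are given 5′ to 3′ on the transcribed strand, and capitals mark the bases that differ between the alternatives of the same gene.
TPM1 exon 6a, chr15:63061198-63061273, plus strand: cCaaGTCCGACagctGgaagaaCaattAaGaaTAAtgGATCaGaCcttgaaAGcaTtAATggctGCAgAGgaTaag
TPM1 exon 6b, chr15:63061713-63061788, plus strand: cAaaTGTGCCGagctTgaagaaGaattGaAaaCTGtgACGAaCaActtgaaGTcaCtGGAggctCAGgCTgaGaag
TPM2 exon 6a, chr9:35685064-35685139, minus strand: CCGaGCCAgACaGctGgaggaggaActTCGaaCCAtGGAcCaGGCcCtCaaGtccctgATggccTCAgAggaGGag
TPM2 exon 6b, chr9:35684732-35684807, minus strand: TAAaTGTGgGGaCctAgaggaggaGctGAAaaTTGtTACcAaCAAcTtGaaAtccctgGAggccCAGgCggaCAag
TPM3 exon 6a, chr1:154172029-154172104, minus strand: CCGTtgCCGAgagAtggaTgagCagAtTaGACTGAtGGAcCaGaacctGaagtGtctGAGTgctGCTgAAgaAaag
TPM3 exon 6b, chr1:154171413-154171488, minus strand: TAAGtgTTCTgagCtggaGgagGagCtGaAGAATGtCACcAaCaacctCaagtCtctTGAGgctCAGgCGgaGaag

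TPM4 has a single exon 6 in the files, and its sequence is nearer to 6b than to 6a of the other genes. It is printed with capitals where it differs from TPM1 exon 6b.
TPM4 exon 6, chr19:16089045-16089120, plus strand: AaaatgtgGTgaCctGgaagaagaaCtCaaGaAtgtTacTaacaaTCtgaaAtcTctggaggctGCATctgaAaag
Within a gene, exons 6a and 6b were identical at 56.6% of positions in TPM1, 52.6% in TPM2 and 52.6% in TPM3. Between genes, the 6b forms of TPM1 and TPM2 matched at 77.6% of positions, those of TPM1 and TPM3 at 76.3% and those of TPM2 and TPM3 at 78.9%. The 6a forms matched less, at 68.4% for TPM1 and TPM2 and 64.5% for either gene with TPM3. Exon 6 of TPM4 matched the 6b forms at 73.7% (TPM1), 73.7% (TPM2) and 72.4% (TPM3). Against the 6a forms of TPM1, TPM2 and TPM3 it matched at 53.9%, 47.4% and 51.3%. The alternatives differ at 33 or more of 76 positions within each gene, so a read that spans one of them can be told from the other.

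TPM1 also has alternative second exons, 2a and 2b, of 126 bases, with identical bases at 49.2% of positions. They are shown because the main TPM1 transcript carries 2b and a minor one carries 2a, with capitals again at the differences.
TPM1 exon 2a, chr15:63043706-63043831, plus strand: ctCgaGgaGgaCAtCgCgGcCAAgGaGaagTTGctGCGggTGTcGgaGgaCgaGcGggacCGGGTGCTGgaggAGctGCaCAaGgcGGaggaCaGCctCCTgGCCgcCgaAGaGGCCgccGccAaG
TPM1 exon 2b, chr15:63044027-63044152, plus strand: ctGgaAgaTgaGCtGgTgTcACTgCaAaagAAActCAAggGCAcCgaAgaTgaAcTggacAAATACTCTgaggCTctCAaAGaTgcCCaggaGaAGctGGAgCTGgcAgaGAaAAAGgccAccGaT
In TPM3 the exon before the last also comes in a short form. The short form occurs in a single transcript of the files, NR_103461, a non-coding RNA record.

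All 4 tropomyosin genes were strongly expressed in both libraries, and all 4 lay within 1.5-fold between them. Levels are in FPKM, fragments per kilobase of transcript scaled to sequencing depth, which allows for transcript length, and gene values are sums over the transcripts of a gene. TPM2, the beta tropomyosin gene (chr9:35681993-35690056), was highest, at 437 FPKM in the untreated and 449 FPKM in the treated library. TPM1, the alpha gene (chr15:63042639-63071914), was at 251 FPKM in the untreated and 275 FPKM in the treated library. TPM4 (chr19:16067507-16103003), whose short product is common in non-muscle cells, was at 241 and 245 FPKM in the same order. TPM3 (chr1:154155304-154192135), which makes slow-muscle and cytoskeletal forms, was lowest, at 173 and 175 FPKM. Each gene was listed slightly higher in the treated library, as were 50.7% of the 11668 genes that averaged 1 FPKM or more. TPM2 turned slightly lower when fragments replaced FPKM, and TPM3 when coding records alone were summed. The order of the genes was the same in both libraries.

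The differences between libraries were small beside those between genes, except between TPM1 and TPM4, which lay close together. The FPKM ratio of treated over untreated was 1.09 for TPM1, with a 95% counting interval of 1.04 to 1.15, an exact conditional binomial interval on estimated fragments. It covers counting error only. Deposited bounds are wider: for NM_003290, nearly all of TPM4, they were 228 and 253 FPKM in the untreated library. The interval from estimated fragments ran from 233 to 248 FPKM there. The gene intervals may therefore be too narrow, also that of TPM1, whose main transcript has bounds that overlap between libraries. The ratio was 1.03 (0.977 to 1.08) for TPM2, 1.01 (0.967 to 1.06) for TPM3 and 1.02 (0.975 to 1.06) for TPM4, and these 3 intervals include 1. On the scale log2((treated FPKM + 1)/(untreated FPKM + 1)) the values were 0.13 for TPM1, 0.04 for TPM2, 0.02 for TPM3 and 0.03 for TPM4. Over the 11668 genes whose mean reached 1 FPKM the median was 0.00 with quartiles of -0.10 and 0.11, so TPM1 lay just outside the middle of all genes and the others inside it. Of those genes 2.23% differed by at least 1.5-fold and 0.66% by at least 2-fold (0.351% higher and 0.309% lower), against 0 of the 4 tropomyosins for either limit. The fragments behind the gene values ranged from an estimated 2692 for TPM1 to 4010 for TPM4 in the untreated library, and from 3153 to 4390 for the same genes in the treated library.

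**Figure D1:**
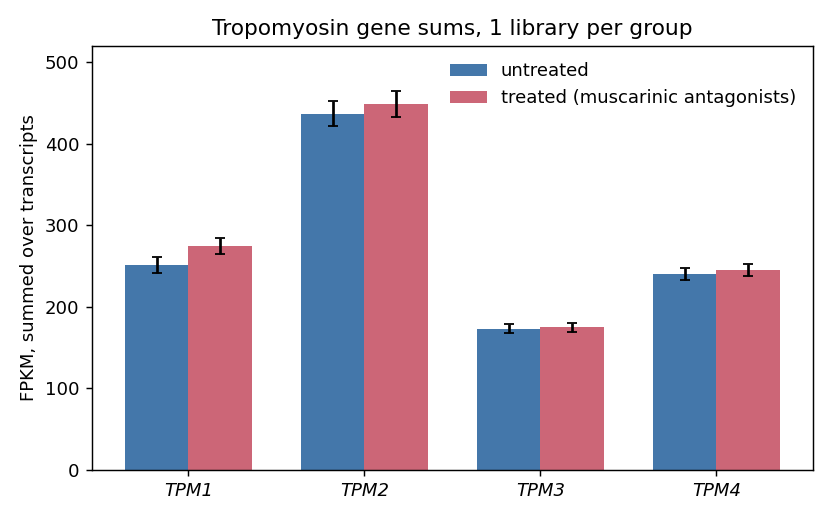
Bars give the FPKM of each tropomyosin gene, summed over its transcripts, in the untreated and the treated library, and error bars are 95% exact Poisson intervals on estimated fragments, for counting error only. The error bars may be too narrow, since the bounds deposited for the main TPM4 transcript are wider. TPM2 stands highest at 437 and 449 FPKM, TPM3 lowest at 173 and 175, and the bars of the libraries are close for every gene.

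TPM1 and TPM4 were neighbours in the order, and in the untreated library their levels could not be separated by counting. There TPM1 was 1.04 times TPM4, with an interval of 0.993 to 1.10. In the treated library it was 1.12 times TPM4 (1.07 to 1.17). The intervals of this paragraph also rest on estimated fragments and may be too narrow. TPM2 exceeded TPM1 by 1.74 times (1.65 to 1.83) in the untreated and 1.63 times (1.55 to 1.72) in the treated library. TPM4 exceeded TPM3 by 1.39 times (1.33 to 1.46) and 1.40 times (1.34 to 1.46). Summed over the family, tropomyosin RNA came to 1101 FPKM in the untreated and 1143 FPKM in the treated library. TPM2 supplied 39.7% and 39.2% of it, TPM1 22.8% and 24.0%, TPM4 21.8% and 21.4%, and TPM3 15.7% and 15.3%. Among all gene names TPM2 ranked 154 and 157 by level, TPM1 246 and 227, TPM4 260 and 253, and TPM3 386 and 373.

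The family divided by start site: TPM1 and TPM2 gave long transcripts, TPM3 and TPM4 short ones. TPM1 transcripts from the upstream exon 1a made up 95.03% of TPM1 FPKM (94.1 to 95.8, exact binomial interval) in the untreated and 95.2% (94.3 to 95.9) in the treated library. Here and below, share intervals rest on all fragments of the gene, many of which cannot tell its transcripts apart, and are too narrow. All 4 TPM2 transcripts in the files share exon 1 and are long. In TPM3 the upstream start gave 0.0545% (0.00685 to 0.204) in the untreated and 0.0528% (0.00627 to 0.187) in the treated library. With fragments in place of FPKM it gave 0.124% and 0.121%. The long TPM4 transcript NM_001145160 was listed at under 1 fragment in both libraries, where 3 fragments would be 0.181 and 0.168 FPKM. Over the family, long transcripts made up 61.3% (60.5 to 62.2) of tropomyosin FPKM in the untreated and 62.1% (61.3 to 62.9) in the treated library. The coding part of matched GENCODE transcripts has 284 codons in the TPM1 and TPM2 transcripts that dominate and 248 codons in those of TPM3 and TPM4.

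The start of TPM4 shows this choice most sharply, and the bases before its transcript starts are printed for that reason. They come from RefSeq promoters on GRCh38.p14 and end at the base before the transcript in the files. Capitals mark a match to the CArG box, the site that serum response factor binds in many muscle and cytoskeletal genes.
TPM4 before the long transcript, chr19:16067288-16067506, plus strand: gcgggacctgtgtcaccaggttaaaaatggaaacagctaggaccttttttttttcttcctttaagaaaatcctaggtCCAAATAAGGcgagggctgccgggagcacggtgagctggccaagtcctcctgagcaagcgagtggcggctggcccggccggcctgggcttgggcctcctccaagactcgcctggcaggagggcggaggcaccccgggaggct
TPM4 before the short transcript, chr19:16076245-16076324, plus strand: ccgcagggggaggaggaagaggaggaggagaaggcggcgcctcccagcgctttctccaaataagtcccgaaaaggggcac
The short transcript, NM_003290, was at 241 and 245 FPKM, and the long one at 4.92e-05 and 3.23e-05 FPKM. A CArG box, which reads alike on both strands, was found in 1 of 8 tropomyosin promoter windows of the RefSeq table, that of the long TPM4 transcript. The windows used cover neither the exon 1a start of TPM1, from which most of its RNA came, nor the upstream start of TPM3, so these were not searched. The window of the short TPM4 transcript holds only 80 bases before it, against 219 for the long one, and the rest lies inside exon 1b. The TPM2 windows overlap each other. In the table as a whole 1.29% of 35116 windows of the same length hold a match. A match describes letters only, and no binding was measured.

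TPM1 was carried by a single transcript with a fringe of minor ones. NM_001018006, with exons 1a, 2b, 6a and 9d, was at 218 FPKM in the untreated library, with deposited bounds of 205 and 231, and at 234 FPKM in the treated library, with bounds of 220.0 and 247. It held 86.9% (85.6 to 88.2) of TPM1 in the untreated and 85.0% (83.7 to 86.3) in the treated library. The bounds overlap, as do the intervals of the shares. Next came NM_001018020, which carries exon 2a in place of 2b, at 10.6 and 12.9 FPKM, with a treated over untreated ratio of 1.22 (0.949 to 1.56). Exon 2b was used by 90.8% and 90.4% of TPM1 FPKM and exon 2a by 4.23% and 4.72%. The rest began at exon 1b, which lies after both.

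Exon 6a, printed above, was the usual choice in TPM1, at 91.4% (90.3 to 92.4) and 90.6% (89.6 to 91.6) of its FPKM. Exon 6b made up 8.63% (7.58 to 9.74) and 9.37% (8.36 to 10.4). These intervals rest on all TPM1 fragments, while only those over exon 6 tell the forms apart, so they are too narrow. Short TPM1 transcripts supplied part of the 6b share: NM_001301289 with last exon 9d was at 8.69 and 10.1 FPKM, and NM_001018008 with last exon 9c at 3.79 and 3.21. Both annotated short transcripts carry 6b, so the files hold no short TPM1 transcript with 6a. Last exon 9d was used by 94.6% (93.7 to 95.4) and 95.3% (94.5 to 96.0) of TPM1. Exons 9a and 9b form the end of the striated muscle product. Transcripts ending in 9b made up 3.86% (3.17 to 4.66) and 3.56% (2.93 to 4.26), mostly NM_001018005, which has 6b and stood at 9.18 and 7.31 FPKM (ratio 0.797, interval 0.543 to 1.14). The smooth muscle combination of 2a, 6b and 9d, NM_001018007, was listed at 0 in the untreated and 0.0645 FPKM in the treated library, both under the floor of 3 fragments.

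Of 18 striated muscle markers, 9 were listed at 0 in both libraries, among them the myosins MYH1, MYH2, MYH6 and MYH7, the creatine kinase CKM and the regulator MYOG. Only TNNT1, the slow skeletal troponin T, averaged 1 FPKM or more, at 41.9 and 38.8 FPKM, and the list summed to 43.9 and 41.0 FPKM. Whether cells with muscle features account for the 9b transcripts was not tested. Of 9 smooth muscle markers 4 were over that level, led by SMTN (smoothelin, 67.5 and 64.8 FPKM) and CNN1 (calponin 1, 13.8 and 15.3 FPKM). MYH11, the smooth muscle myosin, was at 0.196 and 0.0947 FPKM.

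The sharpest difference within TPM1 was in NM_001018004, which differs from the main transcript only in carrying 6b in place of 6a. It was at 0.00711 FPKM in the untreated library, with an upper bound of 0.190, and at 5.05 FPKM in the treated library, with bounds of 3.28 and 6.82. The bounds do not overlap. The treated value, from an estimated 59 fragments, was 18.4 times the floor of 3 fragments in the untreated library, and the lower end of the counting interval of the ratio was 14.5. It held 1.84% (1.40 to 2.37) of TPM1 in the treated library. Only fragments over exon 6 tell it from the main transcript, so these intervals are too narrow. The deposited bounds are wider than 59 fragments alone would give. NM_000366, with 6a and a longer form of exon 9a, stood at 0.509 and 2.46 FPKM, from an estimated 3.85 and 19.8 fragments. It was 4.83 times as high (1.58 to 18.96) in the treated library. Its deposited bounds overlap, and the untreated lower bound is 0. The total share of exon 6b differed by 0.73 points. Of the other transcripts that carry it, NM_001018005 and NM_001018008 had lower values in the treated library. NM_001301289 had a higher one, at 8.69 and 10.1 FPKM, and NM_001018007 and NM_001301244 were under the floor of 3 fragments in both.

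TPM2 was the gene with the most even choice between exons 6a and 6b. NM_213674, with 6a and last exon 9d, the combination known from fibroblasts and smooth muscle, was at 293 FPKM in the untreated library and 299.7 FPKM in the treated library. NM_001301226, which differs from it by having 6b, was at 132 and 140.3 FPKM. Their deposited bounds overlap between libraries, at 274 to 312 against 281 to 319 for the former and 120.0 to 144 against 128 to 153 for the latter. Exon 6a was used by 68.3% (66.6 to 70.0) of TPM2 FPKM in the untreated and 68.7% (67.1 to 70.3) in the treated library. Exon 6b was used by 31.7% (30.01 to 33.4) and 31.3% (29.7 to 32.9).

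Last exon 9a, which ends the skeletal muscle form of TPM2, was rare. It was used by 2.71% (2.17 to 3.37) and 1.90% (1.46 to 2.43) of TPM2, an FPKM ratio of 0.719 (0.520 to 0.990). Its transcripts moved in opposite directions. NM_003289, the skeletal combination of 6b with 9a, was at 6.07 FPKM in the untreated library, with bounds of 3.54 and 8.60, and at 0.00886 FPKM in the treated library, with an upper bound of 0.248. The untreated value, from an estimated 48 fragments, was 16.8 times the floor of 3 fragments in the treated library, and the upper end of the counting interval of the treated over untreated ratio was 0.0752. Only fragments that reach from exon 6b to 9a are its own, so this interval is too narrow. The deposited bounds are wider than 48 fragments alone would give. NM_001301227, the combination of 6a with 9a, stood at 5.78 and 8.504 FPKM (ratio 1.47, interval 1.01 to 2.21), and its bounds overlap.

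TPM3 was the gene nearest to a single product among those with several transcripts over 1 FPKM. NM_153649, a short transcript with exons 1b, 6a and 9d, was at 163 FPKM (bounds 154 and 172) in the untreated and 164 FPKM (155 and 173) in the treated library. It held 94.2% (93.4 to 94.98) and 93.7% (92.9 to 94.5) of the gene. Exon 6a was used by 98.6% (98.1 to 98.9) and 99.3% (99.0 to 99.6) of TPM3, and 6b by 1.42% (1.05 to 1.86) and 0.663% (0.440 to 0.985). The long muscle transcript NM_152263 was at 0.0942 and 0.0924 FPKM.

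The minor transcripts of TPM3 differed more than its main one. NR_103461, which uses the short exon 8 and is otherwise built like the main transcript, was at 1.67 FPKM in the untreated library, with bounds of 0.903 and 2.43, and at 7.08 FPKM in the treated library, with bounds of 5.55 and 8.61. The ratio was 4.24 (2.92 to 6.36) from an estimated 34 and 156 fragments, and its share of TPM3 was 0.965% (0.666 to 1.34) and 4.05% (3.44 to 4.71). Only reads over the start of exon 8, where 4 bases are missing, can tell this record from the main one. Its estimated fragments are mostly shared reads divided between the records, so the interval of its ratio is too narrow. The deposited bounds are wider than 34 and 156 fragments alone would give. Another 4 minor transcripts, all coding, had lower values in the treated library. NM_001278188, which lacks exon 3, was at 2.73 and 1.57 FPKM, and NM_001278190, which lacks exon 7, at 1.61 and 0.723 FPKM. NM_001043351, which carries 6b, was at 2.19 and 0.858 FPKM. NM_001278189, which adds exon 9a, was at 1.49 and 0.305 FPKM, with bounds that do not overlap. The deposited bounds of NM_001278188, NM_001278190 and NM_001043351 do overlap between the libraries. In the order of their values above, the 4 had ratios of 0.575 (0.362 to 0.909), 0.448 (0.238 to 0.870), 0.392 (0.216 to 0.683) and 0.204 (0.0778 to 0.485). These intervals too take shared fragments as certain and are too narrow. How many of all minor transcripts have an interval that leaves out 1 was not counted. NM_001278191 and NM_001043352, both under 1 FPKM, were listed higher in the treated library, at 0.174 and 0.210 and at 0 and 0.161 FPKM.

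**Figure D2:**
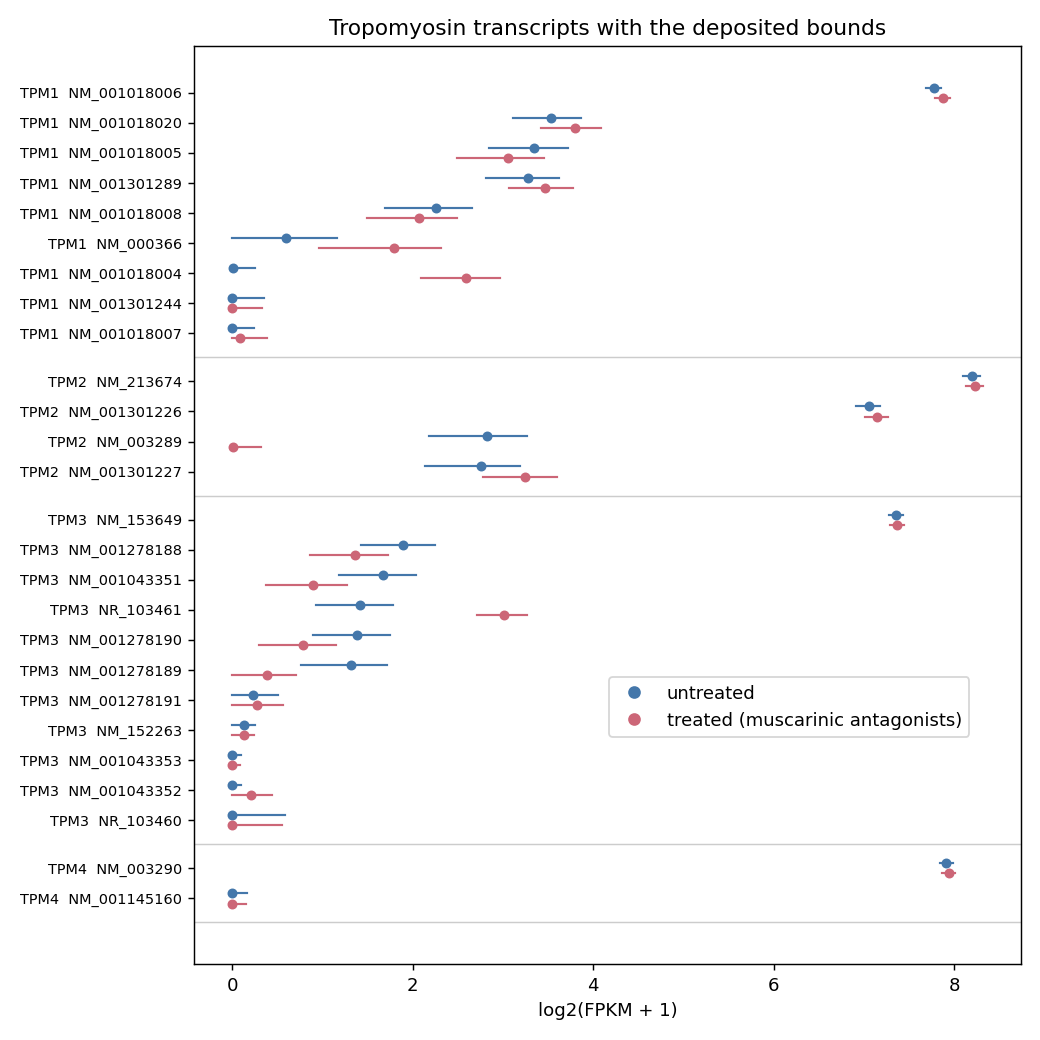
Each point is 1 tropomyosin transcript in the untreated or the treated library on the log2(FPKM + 1) scale, and lines are the lower and upper bounds deposited with each value. The main transcripts at the right overlap between libraries, while NM_001018004, NM_003289, NR_103461 and NM_001278189 do not.

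TPM4 signal went to a single one of its 2 listed transcripts. Current RefSeq lists 5, and forms that are not listed here could not be seen. NM_003290, which starts at exon 1b, was at 241 FPKM (bounds 228 and 253) in the untreated library and 245 FPKM (232 and 257) in the treated library, all of the listed TPM4 signal to the precision of counting (99.9% to 100%). With exon 6 of TPM4 being the 6b type by sequence, TPM4 was the main source of short transcripts with a 6b-like exon, and TPM3 of short transcripts with 6a.

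**Figure D3:**
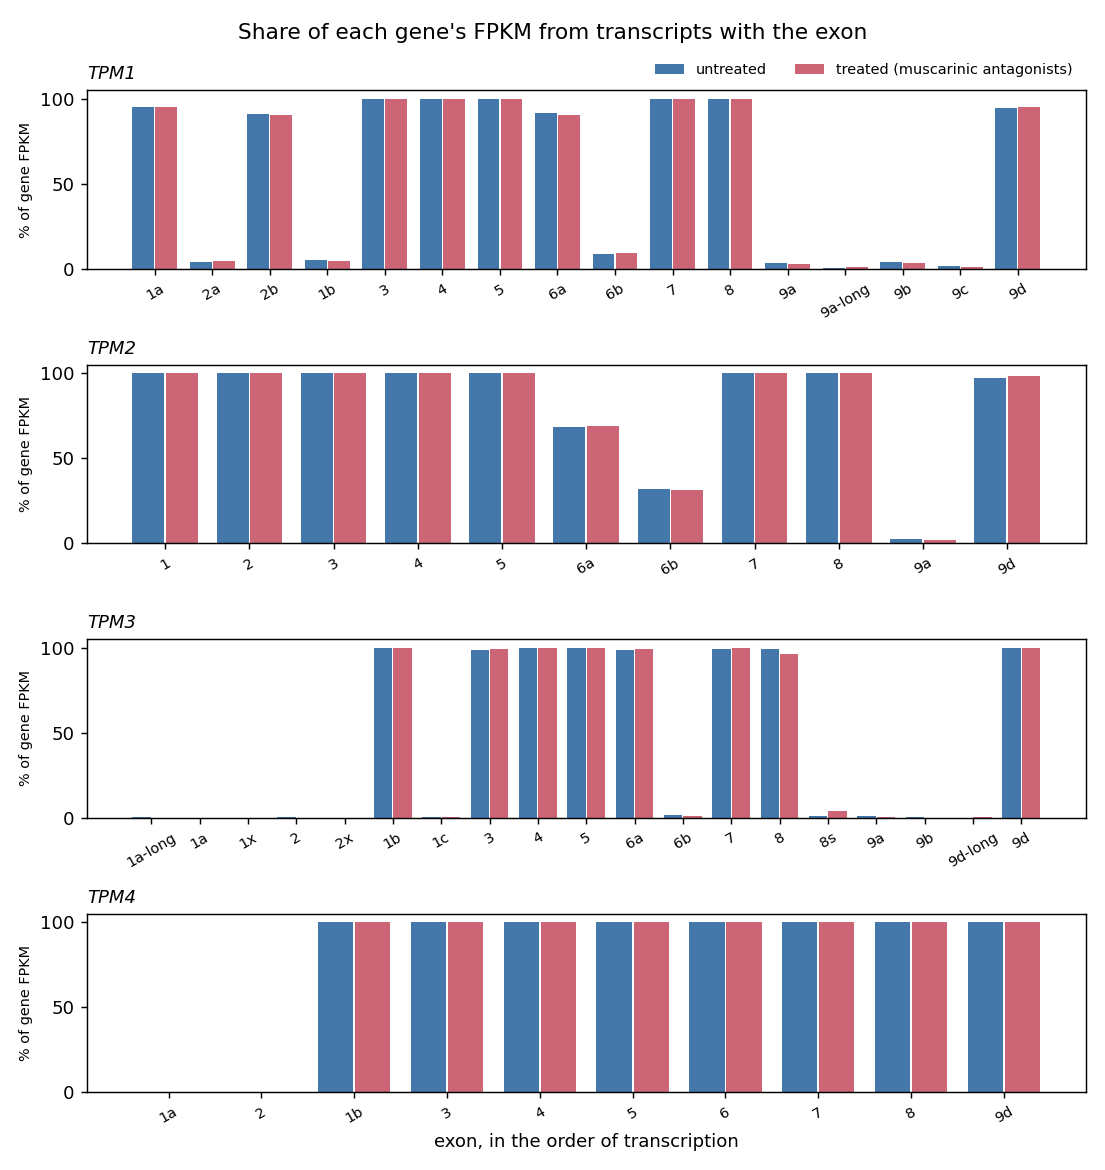
Bars give, for each exon in the order of transcription, the percentage of the gene's FPKM that came from transcripts containing it, in the untreated and the treated library. Exon 6b reaches 31.7% and 31.3% in TPM2 but 8.63% and 9.37% in TPM1 and 1.42% and 0.663% in TPM3, and exon 1a carries TPM1 but not TPM3 or TPM4.

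Differences of this kind in minor transcripts were common across all genes. Of the 26 tropomyosin transcripts, 17 averaged 1 FPKM or more, and 4 of these differed by at least 2-fold on the FPKM + 1 scale: NM_001018004, NM_000366 and NR_103461 were higher and NM_003289 was lower in the treated library. Over all transcripts with that mean in genes with more than 1 transcript, 9.18% of 11897 differed so. Restricted to minor transcripts, those under 10% of their gene in both libraries, the figure was 15.6% of 1498, against 4 of 12 for the tropomyosins. Of the same 1498 minor transcripts 17.4% had deposited bounds that do not overlap, against 3 of the 12. Of the 4 tropomyosin transcripts past 2-fold, 3 reached the mean of 1 FPKM through a single library, and so had to differ between the libraries. The remaining one, NR_103461, was over 1 FPKM in both. Of the other 9 transcripts, 8 were under 1 FPKM in both libraries, and NM_001278189 had a mean of 0.899 FPKM and a log2 ratio of -0.93.

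**Figure D4:**
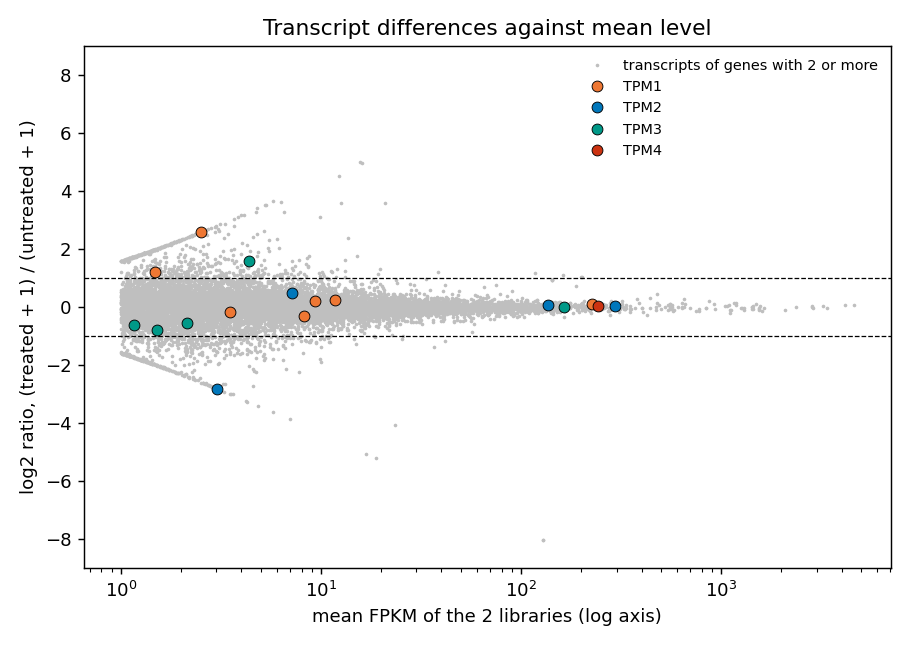
Points give the log2 ratio of treated over untreated (FPKM + 1) against the mean FPKM of the libraries on a log axis, with tropomyosin transcripts of at least 1 FPKM coloured by gene and all transcripts of genes with more than 1 transcript in grey. The 4 coloured points beyond the dashed 2-fold lines lie at low means, among grey points, and the main transcripts lie near 0.

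Taken over whole genes, the distribution among transcripts shifted little. The profile change, the sum of absolute share differences over a gene's transcripts divided so that 100 points is a complete exchange, was 3.23 points for TPM1, 1.58 for TPM2, 3.19 for TPM3 and 7.24e-06 for TPM4. Among 419 genes with several transcripts and an average of 100 FPKM or more, the median was 1.57 points with quartiles of 0.497 and 3.42, and 3.82% changed by at least 10 points. TPM1, TPM2 and TPM3 thus lay inside or near the middle of such genes. Among all 6675 genes with several transcripts that averaged 1 FPKM or more the median was 6.51 points and 39.1% changed by at least 10. The effective number of transcripts, the inverse of the summed squared shares, was 1.32 and 1.37 for TPM1, 1.85 and 1.84 for TPM2, and 1.13 and 1.14 for TPM3.

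Fragments that fit other genes bear on TPM3 and TPM4. Of the 50-base words of the main TPM4 transcript 23.1% also occur in GENCODE transcripts of other genes, mostly in AC098614.1, and 9.41% of those of TPM3 do, mostly in AC243960.2. The counts were 0 for the main transcripts of TPM1 and TPM2, and no word was shared between tropomyosin genes. The processed copy TPM3P9 is listed at 1.495 and 2.09 FPKM. These 3 names were chosen after their values were seen. No other gene record in the files overlaps a tropomyosin locus.

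Genes that act with tropomyosin were read against the 2.23% of all genes that differed by at least 1.5-fold, a share so small that a count of 0 in a short list says nothing particular about the list. Of 24 genes for filament partners, 8 averaged 1 FPKM or more, the floor used here, with 6 higher and 2 lower in the treated library and a median log2 ratio of 0.06, and 0 passed 1.5-fold in either direction. TAGLN, transgelin, an actin-binding protein of smooth muscle type, was at 397 and 498 FPKM, 1.25 times as high (1.19 to 1.32) in the treated library. CNN1 was named above, CNN3, another calponin, was at 148 and 161 FPKM, and TAGLN2, a relative of transgelin, at 561 and 581 FPKM. The actin list had 4 of 8 members over the floor, 2 higher and 2 lower, with a median of -0.04 that turned to 0.02 with no floor and 0.10 with a floor of 5 FPKM. ACTB, the cytoplasmic beta actin, was at 3138 and 3513 FPKM, ACTG1, the gamma actin, at 3224 and 3294, ACTG2, of enteric smooth muscle, at 5.14 and 4.17, and ACTA2, of vascular smooth muscle, at 2.52 and 2.26.

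Non-muscle myosin II and its regulators had 16 of 17 members over the floor, 10 higher and 6 lower, with 0 past 1.5-fold and a median of 0.06, which was 0.0075 with the most abundant transcript of each gene alone. MYL6, a myosin light chain, was at 973 and 1119.9 FPKM, MYL6B, its relative, at 71.2 and 85.7, and MYL9, a regulatory light chain, at 564 and 610.2. ROCK2, a kinase that activates myosin, was at 6.999 and 8.27 FPKM, while its relative ROCK1 was at 9.86 and 8.43 and the small GTPase RHOB at 23.4 and 19.7. Formins, Arp2/3 subunits, cofilins and crosslinkers had 36 of 36 over the floor, 21 higher and 15 lower, with 0 past 1.5-fold and a median of 0.04, which was 0.012 with a floor of 5 FPKM. Of these FLNA, which crosslinks actin, was at 397 and 459 FPKM, ACTN1, alpha-actinin, at 376 and 420.1, INF2, a formin, at 71.7 and 60.3, and DIAPH2, another formin, at 3.46 and 4.02. TMSB10 and TMSB4X, thymosins that bind actin monomers, were the highest, at 3509 and 3612 FPKM and at 1314 and 1406 FPKM. Over all 11668 genes 50.7% were higher in the treated library and the median was 0.00.

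A hand-made list of splicing factors, taken as candidates to act on tropomyosin exons, had 25 of 32 members over the floor. Of these 13 were higher and 12 lower, with a median of 0.00. Whether each member acts on these exons was not tested. A single member passed 1.5-fold higher and 0 passed it lower, against 1.2% and 1.03% of all genes. That member was NOVA1, a neuronal splicing factor, at 1.28 and 2.498 FPKM, from an estimated 24 and 34 fragments (ratio 1.95, interval 1.12 to 3.43). Its log2 ratio was 0.62 on FPKM and 0.37 on fragments scaled to depth, where it no longer passed 1.5-fold. The interval takes the FPKM per fragment of each library as exact, though that depends on the division among transcripts. PTBP1, which represses muscle-type exons of tropomyosin genes, was at 251 and 240.1 FPKM. CELF1 was at 29.004 and 24.8 FPKM, SRSF2 at 46.1 and 51.9, U2AF1, of the 3′ splice site factor, at 150.2 and 166, and HNRNPA1 at 971 and 966. For SRF, its cofactors and their targets, 23 of 24 genes were over the floor, with a median of 0.04. Of these 15 were higher and 8 lower, where 50.7% of all genes were higher. Only FOS, an immediate early gene, passed 1.5-fold, at 16.8 and 9.62 FPKM. TAGLN, FLNA and ACTB belong to this list as well as to those above.

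**Figure D5:**
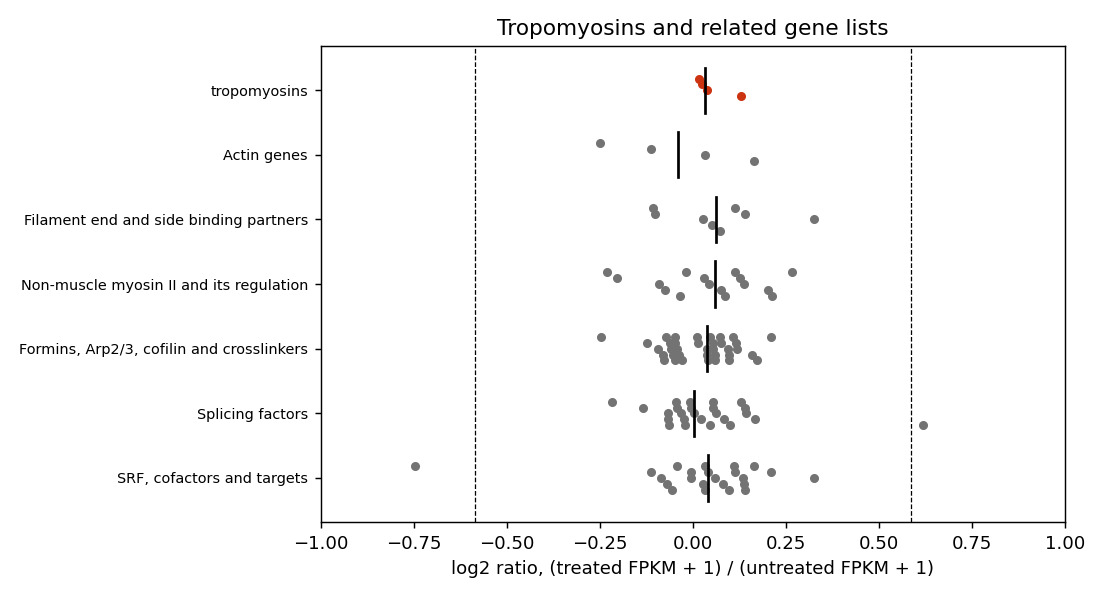
Points give the log2 ratio of treated over untreated (FPKM + 1) of each gene that averaged 1 FPKM or more, for the tropomyosins and 6 related lists, with black bars at the medians and dashed lines at 1.5-fold. The tropomyosins lie between 0.02 and 0.13, and only NOVA1 and FOS lie beyond the dashed lines.

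By level over the 2 libraries alone, the genes most like each tropomyosin were PFKP and EDF1 for TPM1, EIF1 and TUBB4B for TPM2, LASP1 and MZT2A for TPM3, and TK1 and KPNA2 for TPM4. The measure was the Euclidean distance in log2(FPKM + 1), at 0.0389 and 0.0760, 0.0269 and 0.0585, 0.0138 and 0.0184, and 0.00782 and 0.0210 in that order.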

How the data were processed

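RNA was measured in 1 untreated and 1 treated library of CHME3 cells, grouped by the treatment label. TopHat, Cuffdiff and hg38 are named, without versions, per the submitters' processing notes, and per the file headers each line comes from Cufflinks. The authors deposited an FPKM value with lower and upper bounds for each RefSeq transcript, and a score that was not used. Strand handling is not given in the sources used here.

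FPKM was summed by gene name. Ratios are log2 with a pseudocount of 1 FPKM, which understates ratios of low values, for features with a mean of 1 FPKM or more. Fragments were recovered from the deposited bounds of single-transcript genes as the square of 2 × FPKM over the distance to the upper bound. Those whole within 0.01, with 10 or more fragments and 1000 or more bases, gave the depth. Of recovered values 21.1% (untreated) and 21.3% (treated) were whole, so no count test was run. Over single-transcript genes with 20 or more fragments and 1000 or more bases, the estimate from depth and length had a median ratio of 1.01 to the recovered number. These genes overlap those that gave the depth. Every tropomyosin gene has more than 1 transcript, so their estimates were not checked in this way. The bounds deposited for the main TPM4 transcript are wider than its estimated fragments would give, so such estimates may be too high. Intervals (95%, exact binomial, conditional binomial or Poisson) cover counting error only, not division among transcripts or PCR duplicates. For transcripts and exons they take shared fragments as if assigned with certainty, and so are too narrow.

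The members and lists were chosen with earlier results of these data known. Every tropomyosin is named, with up to 4 members per list of largest absolute ratio and 2 of highest level, the top 2 of each marker list and the 2 nearest coding genes; further names were picked with their values in view. A marker gene and an exon sequence are not reported here. Exon sequences came from GENCODE release 29 and promoters from RefSeq. The scripts were tested on simulated data in which the origin of each fragment was known, which cannot test the division of fragments among transcripts. Python 3.11.15, numpy 2.4.6, pandas 2.3.3 and scipy 1.17.1 were used.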

Additional observations from a re-analysis of the deposited data

How the results depend on the processing

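Of 104 values recomputed under other settings, 98 stayed inside the counting interval of the value, or for lists inside a range of members around the median, which for short lists is wide. The other 6 lay outside. With fragments in place of FPKM, NM_001018006 made up 88.6% of TPM1 (untreated) and 86.5% (treated), and 87.5% (treated) with only transcripts whose lower bounds are above 0 in both libraries. NM_153649 made up 95.2% of TPM3 (untreated) under that last setting, and 95.2% (untreated) and 97.7% (treated) with coding records alone. The log2 ratio of TPM1 ran from 0.10 to 0.13 over 9 settings and that of TPM4 from 0.01 to 0.03. TPM2 ran from -0.0041 (fragments) to 0.04, and TPM3 from -0.03 (coding records) to 0.02. The actin median ran from -0.06 to 0.10 and the splicing factor median from -0.0065 to 0.05, so neither has a settled sign. The myosin median ran from 0.0075 to 0.06, the formin median from 0.012 to 0.04. For NOVA1 and FOS, fragments in place of FPKM, a setting chosen after seeing the data, gave 0.37 and -0.82. No paired analysis was possible because each group has 1 library, and no library could be left out. Current RefSeq lists 83 transcripts of these genes against 26 in the files, with 57 against 9 for TPM1. Transcripts that differ by 1 exon are told apart only by the fragments over it.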
